A study of Mus musculus with 12 samples.

Results

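Megalin, cubilin, amnionless and Dab2 form the machinery with which absorptive epithelia take up nutrients, and their genes, Lrp2, Cubn, Amn and Dab2, are described here in mouse blastocysts under inhibition of p38-MAPK. The 4 genes were chosen by function from the 34245 genes of the deposited table, with their levels in these libraries and their p38-MAPKi against control differences already known, so those values are given as a description. Where limma's calls on them are counted, nothing is read from the count. Embryos from F1 hybrid (C57Bl6 x CBA/W) females mated with F1 males were cultured from the 2-cell stage (E1.5). The compound SB220025 blocks the kinase p38-MAPK (p38-MAPKi). From E3.5 the blastocysts were kept either with this compound at 20 µM or with its solvent DMSO (control). They were collected after 4, 7 or 10 h, and poly(A) mRNA was sequenced from 2 replicate libraries for each of the 6 groups. Each library was made from a pool of 30 whole embryos. These hold the trophectoderm (TE) and the inner cell mass, whose cells become epiblast (EPI) or primitive endoderm (PrE). For every difference below, fewer cells of a type and less RNA per cell therefore cannot be told apart, and the replicates measure the spread between pools. There was no arm with a second inhibitor of p38-MAPK and no spike-in.

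Megalin is a giant receptor of the LDL receptor family, and cubilin is a large peripheral membrane protein that binds vitamin and protein ligands but has no transmembrane segment of its own. Cubilin reaches the cell surface through amnionless, the transmembrane partner with which it forms the complex called cubam, and Dab2 is the cytoplasmic adaptor that links the tails of megalin and amnionless to clathrin and AP-2. In the early mouse embryo this system is known above all from the extra-embryonic endoderm, where the visceral endoderm takes up maternal protein, lipid and vitamins before a placenta works. Dab2 and Lrp2 are also known as genes of the PrE.

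Levels are given as RPKM (reads scaled to exon length and to the depth of the library), which allows genes to be compared. Depth lay between 11242313 and 24457312 reads per library. Of the 14 PrE markers, 11 had a mean of at least 1 RPKM, as had 12 of 12 EPI markers and 11 of 12 TE markers, whereas 6 of 9 markers of blood and fibroblasts had no read in any library. The PrE marker genes Foxa2 and Sox7 were among those under 1 RPKM on average. Before the values are read, 3 libraries have to be set apart. The median level of genes longer than 10000 bases against that of genes up to 2000 bases, relative to the mean of all libraries, was -0.81 and -0.59 (log2) in both p38-MAPKi libraries at 7 h and -0.60 in p38-MAPKi replicate 2 at 4 h. In the other 9 libraries it lay between -0.08 and 0.45. Lrp2 and Cubn are among these long genes, with 16701 and 14935 exonic bases, while Dab2 has 7342 and Amn 1843.

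Lrp2 (ENSMUSG00000027070.14, chromosome 2, 69424340 to 69586065, minus strand, GRCm38) encodes megalin and had the highest level of the 4 genes. Control libraries held 76.8 and 75.9 RPKM at 4 h, 74.7 and 91.0 at 7 h, and 85.6 and 83.0 at 10 h. The p38-MAPKi libraries held 64.0 and 36.4 RPKM at 4 h, 27.6 and 32.5 at 7 h, and 68.5 and 54.5 at 10 h. Every p38-MAPKi library thus lay below every control library, and the 3 libraries with the lowest Lrp2 were the 3 set apart above. The group means ordered from 84.3 ± 1.81 RPKM (SD, n = 2) in controls at 10 h through 82.8 ± 11.5 and 76.4 ± 0.696 in controls at 7 and 4 h to 61.5 ± 9.86, 50.2 ± 19.5 and 30.0 ± 3.45 in p38-MAPKi at 10, 4 and 7 h. Neighbouring control groups overlapped, as did p38-MAPKi at 10 and 4 h. The log2 difference of p38-MAPKi from control was -0.66 ± 0.20 (SE, n = 2 per group) at 4 h, -1.46 ± 0.18 at 7 h and -0.46 ± 0.11 at 10 h, or 63.2%, 36.3% and 72.5% of the control level. The SE at 4 h comes from a variance that limma gave to all genes of similar level, so the gap between the 2 p38-MAPKi replicates of Lrp2 does not enter it. Without p38-MAPKi replicate 2 the difference was -0.25 at 4 h and -0.30 at 10 h, and without replicate 1 it was -1.07 at 4 h.

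Cubn (ENSMUSG00000026726.10, chromosome 2, 13276338 to 13491813, minus strand, GRCm38) encodes cubilin and was present at a far lower level than Lrp2. Control libraries held 2.96 and 2.42 RPKM at 4 h, 2.63 and 2.99 at 7 h, and 3.56 and 3.13 at 10 h. The p38-MAPKi libraries held 3.05 and 1.4 RPKM at 4 h, 2.56 and 1.93 at 7 h, and 4.34 and 4.14 at 10 h. The groups overlapped at 4 h, lay apart by a narrow gap at 7 h with p38-MAPKi lower, and lay apart at 10 h with p38-MAPKi higher. The highest group mean was 4.24 ± 0.137 RPKM (SD, n = 2) in p38-MAPKi at 10 h, followed by 3.35 ± 0.305 in controls of that time, and these neighbours did not overlap. Controls at 10 h also lay above controls at 7 h, whereas the remaining groups, down to 2.24 ± 0.441 in p38-MAPKi at 7 h, overlapped with their neighbours. The log2 differences were -0.35 ± 0.34 (SE) at 4 h, -0.33 ± 0.32 at 7 h and 0.34 ± 0.13 at 10 h. The value at 4 h was -0.88 without p38-MAPKi replicate 1, -0.20 without control replicate 1 and turned to 0.19 without p38-MAPKi replicate 2, while the value at 7 h was -0.54 without p38-MAPKi replicate 1, -0.13 without replicate 2 and turned to 0.26 once the trend with gene length was removed from each library. An exon of the opposite strand, of Gm13270, overlaps an exon of Cubn. The level of Gm13270 was between 0.00885 and 0.107 RPKM.

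Amn (ENSMUSG00000021278.7, chromosome 12, 111271095 to 111276426, plus strand, GRCm38) encodes amnionless and rested on few reads, between 25 and 169 per library. Control libraries held 2.00 and 3.21 RPKM at 4 h, 2.36 and 2.02 at 7 h, and 1.28 and 0.839 at 10 h. The p38-MAPKi libraries held 2.81 and 4.24 RPKM at 4 h, 1.21 and 3.27 at 7 h, and 1.48 and 1.86 at 10 h. The groups overlapped at 4 and 7 h, and at 10 h both p38-MAPKi libraries lay above both controls. The lowest of the p38-MAPKi values at 7 h came from 25 reads, for which the exact Poisson 95% interval of 16.2 to 36.9 reads covers counting error only. Group means ran from 3.53 ± 1.01 RPKM (SD, n = 2) in p38-MAPKi at 4 h to 1.06 ± 0.314 in controls at 10 h. In that order the 4 groups of 4 and 7 h overlapped with their neighbours, while p38-MAPKi at 10 h lay between controls at 7 h and controls at 10 h without overlap. The log2 differences were 0.45 ± 0.31 (SE) at 4 h, -0.14 ± 0.48 at 7 h and 0.68 ± 0.30 at 10 h. Leaving out 1 library gave 0.11 (control replicate 1) to 0.79 (control replicate 2) at 4 h, with 0.15 without p38-MAPKi replicate 2 and 0.74 without replicate 1. At 10 h it gave 0.37 without control replicate 2 and 0.98 without control replicate 1. At 7 h the sign was not fixed, since centring each library on its median gave 0.06.

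Dab2 (ENSMUSG00000022150.16, chromosome 15, 6299788 to 6440712, plus strand, GRCm38) encodes the adaptor and had the second-highest level. Control libraries held 46.3 and 53.1 RPKM at 4 h, 57.5 and 47.3 at 7 h, and 58.0 and 58.7 at 10 h. The p38-MAPKi libraries held 45.5 and 33.8 RPKM at 4 h, 24.0 and 28.3 at 7 h, and 54.6 and 51.0 at 10 h. Both p38-MAPKi libraries lay below both controls at each time, by a narrow gap at 4 and 10 h and by a wide one at 7 h. The group means were 58.4 ± 0.448 RPKM (SD, n = 2) in controls at 10 h, 52.8 ± 2.53 in p38-MAPKi at 10 h, 52.4 ± 7.19 and 49.7 ± 4.78 in controls at 7 and 4 h, and 39.7 ± 8.25 and 26.1 ± 3.03 in p38-MAPKi at 4 and 7 h. Among neighbours in this order, p38-MAPKi at 10 h overlapped with controls at 7 h, and the latter with controls at 4 h. The log2 differences were -0.34 ± 0.20 (SE) at 4 h, -1.0 ± 0.19 at 7 h and -0.14 ± 0.07 at 10 h, or 79.1%, 49.9% and 90.4% of the control level. Without p38-MAPKi replicate 2 the difference was -0.12 at 4 h and -0.10 at 10 h, and without replicate 1 it was -0.55 at 4 h. An exon of Gm18888, on the opposite strand, overlaps an exon of Dab2. No gene of that name is in the deposited table, so its level is not known here.

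**Figure D1:**
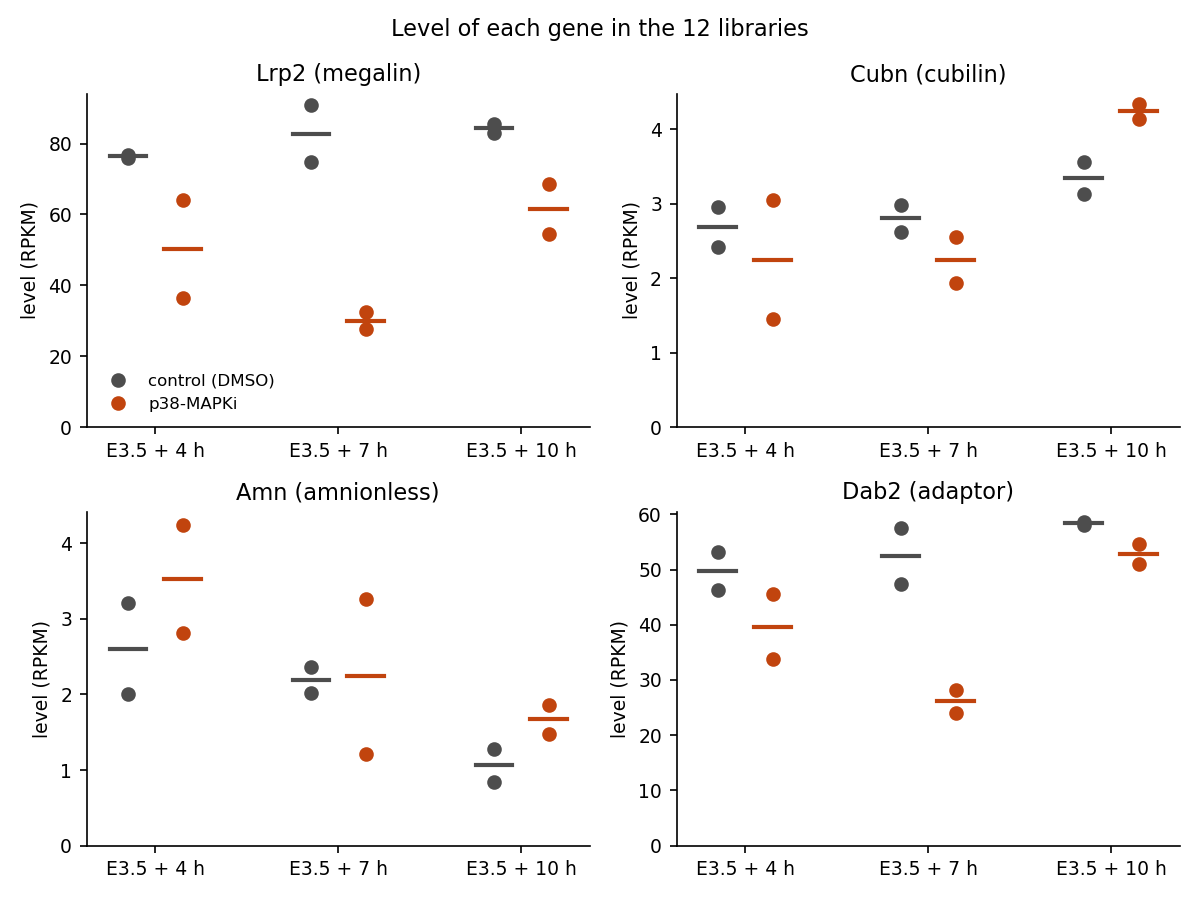
Level of each gene (RPKM, vertical axis from 0) in the 12 libraries by time after E3.5, with control libraries in grey, p38-MAPKi libraries in orange and the mean of each group of 2 as a bar. Lrp2 and Dab2 are lowest in p38-MAPKi at 7 h (30.0 and 26.1 RPKM on average), while Cubn and Amn are higher in p38-MAPKi than in control at 10 h.

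Because Lrp2 and Dab2 were both lower under p38-MAPKi, the bases before their starts are shown side by side, each read in the direction of transcription and ending where the annotated exon begins. They come from RefSeq (GRCm38.p6). The letters GATAA (GATA factors), GGGCGG (the GC box bound by Sp1) and TGACTCA (AP-1, a target of MAPK signalling) were searched on both strands, and capitals mark each match. No matches overlapped.
Lrp2, chr2:69586066-69586279, minus strand: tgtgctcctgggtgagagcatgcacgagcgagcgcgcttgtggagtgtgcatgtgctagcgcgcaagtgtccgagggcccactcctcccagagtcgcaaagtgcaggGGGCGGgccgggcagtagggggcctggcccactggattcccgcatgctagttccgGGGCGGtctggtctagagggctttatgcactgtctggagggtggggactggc
Dab2, chr15:6299539-6299787, plus strand: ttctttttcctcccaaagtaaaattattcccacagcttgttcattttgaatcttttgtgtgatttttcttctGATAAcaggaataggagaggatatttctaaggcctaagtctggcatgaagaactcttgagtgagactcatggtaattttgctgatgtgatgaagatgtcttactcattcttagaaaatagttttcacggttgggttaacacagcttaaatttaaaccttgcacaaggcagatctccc
The 214 bases before Lrp2 held 65.9% G or C and 2 GC boxes, which are present in 32.7% of the 32851 promoter windows of 250 bases in the RefSeq table. The 249 bases before this Dab2 start held 36.5% G or C and 1 GATAA, present in 22.6% of these windows. Neither stretch held TGACTCA, which 4.46% of them contain. The GC box was also present once before Amn, on the opposite strand, and none of these letters was found before Cubn or the second Dab2 start listed by RefSeq. These matches are letters in a window, and no binding was measured.

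Differences from control were estimated for all genes together with limma, which was applied to the deposited log2 values, with p-values adjusted by the method of Benjamini and Hochberg and a threshold of 0.05. At 4 h none of the 4 genes passed, with limma calling 0.909% of 10781 tested genes. At 7 h Lrp2 and Dab2 passed, in a comparison in which limma called 2.13% of 10940 genes. The call of Lrp2 was lost without control replicate 2, where its difference was -1.32 and no gene of the table was called, and that of Dab2 without control replicate 1 (-0.86) or 2 (-1.14). At 10 h none of the 4 passed, beside 0.803% of 10959 genes. By the plainer measure of libraries that do not overlap in either direction, the groups lay apart for 2 of the 4 genes at 4 h, 3 at 7 h and 4 at 10 h. Over all tested genes this held for 40.4%, 61.7% and 52.2%. As these contrasts were known when the genes were chosen, these counts are not evidence about the 4 genes.

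Gene length moved with the difference at 4 and 7 h. Over all tested genes at 7 h, the median log2 difference was 0.34 for genes up to 2000 bases, -0.08 for 2000 to 5000, -0.36 for 5000 to 10000 and -0.54 for those over 10000, of which 91.8% were lower in p38-MAPKi. At 4 h these medians were 0.21, 0.12, -0.03 and -0.20, whereas at 10 h they lay between -0.04 and 0.02. Lrp2 was lower than the median of its length class at all 3 times, and 3.28% of 793, 1.02% of 788 and 0.974% of 821 genes over 10000 bases had a lower difference at 4, 7 and 10 h. Cubn, of nearly the same length, had 26.2%, 71.4% and 95.5% of them below it. For Dab2, 13.3%, 6.51% and 21.9% of the genes of 5000 to 10000 bases had a lower difference, and for Amn 81.7%, 22.3% and 94.3% of those up to 2000 bases. With the trend on length removed from each library, Lrp2 had log2 differences of -0.42 at 4 h, -0.84 at 7 h and -0.50 at 10 h, and Dab2 had -0.28, -0.63 and -0.15. Neither gene was then called at 7 h, and neither was any other of the 10940 genes tested. The direction of both was kept at each time, and at 10 h, where no library was set apart by length, the value of Lrp2 moved little. The part of gene length in the values at 7 h was not tested beyond this, as both p38-MAPKi libraries of that time were set apart.

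**Figure D2:**
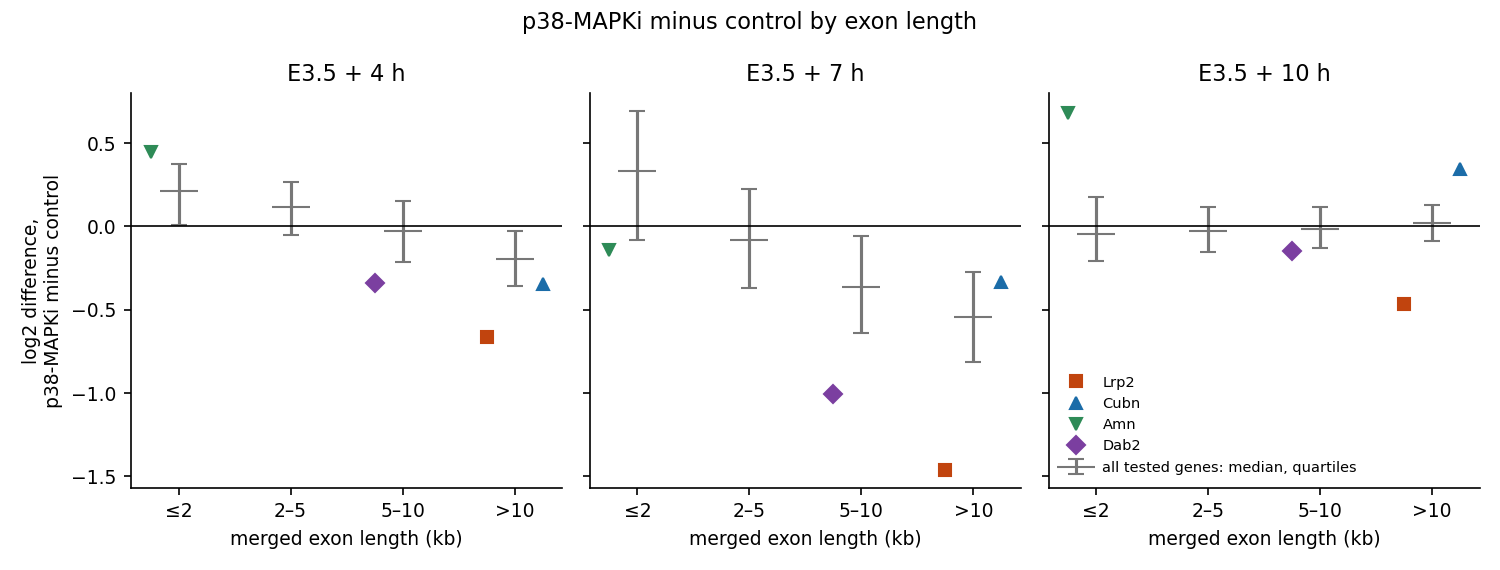
Log2 difference of p38-MAPKi from control (vertical axis) by merged exon length (kb, horizontal axis) at each time, with grey bars for the median and quartiles of all tested genes and symbols for the 4 genes. At 7 h the medians descend from 0.34 to -0.54, and Lrp2 and Dab2 lie below the lower quartile of their class at all 3 times.

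**Figure D3:**
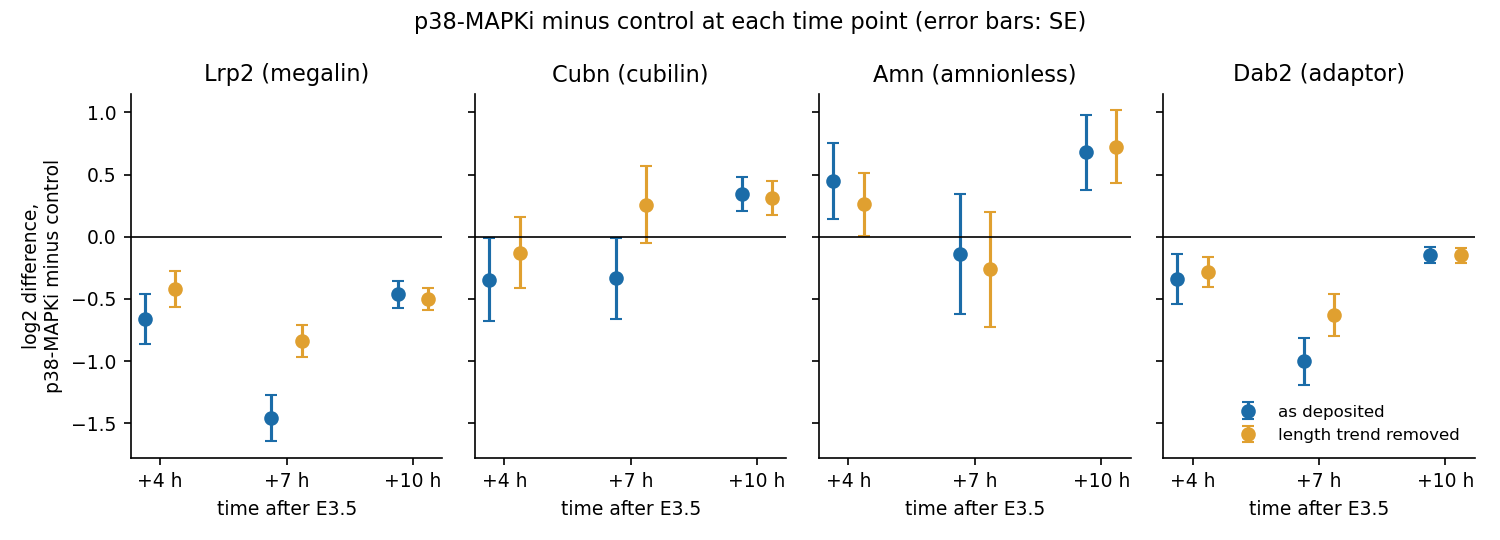
Log2 difference of p38-MAPKi from control (vertical axis, error bars SE) at 4, 7 and 10 h for each gene, from the values as deposited in blue and with the trend on gene length removed from each library in yellow. Lrp2 and Dab2 lie below 0 in both, with Lrp2 at -1.46 and -0.84 at 7 h.

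A ratio within a library does not depend on a factor that scales all its genes alike. Lrp2 and Cubn have similar lengths, but genes of 1 length class differed among themselves. At 7 h the quartiles of those over 10000 bases were -0.82 and -0.27. The ratio of Lrp2 to Cubn (RPKM) was 26.0 and 31.4 in controls at 4 h, 28.4 and 30.4 at 7 h, and 24.0 and 26.5 at 10 h. In p38-MAPKi it was 21.0 and 25.1 at 4 h, 10.8 and 16.8 at 7 h, and 15.8 and 13.2 at 10 h. The p38-MAPKi libraries lay below the controls of their time at all 3 times, by the widest margins at 7 and 10 h. At 10 h Cubn was itself higher in p38-MAPKi, with a log2 difference of 0.34, which lowers this ratio. The ratio of Lrp2 to Dab2 lay between 1.30 and 1.92 in the 6 control libraries and between 1.07 and 1.41 in the 6 p38-MAPKi libraries. Within each time its p38-MAPKi libraries lay below its controls. Lrp2 and Dab2 differ in length (16701 and 7342 exonic bases). The part of gene length was not tested in the ratio of Lrp2 to Dab2 or in that of Lrp2 to Cubn. The ratio of Cubn to Amn, the partners in cubam, ranged widely from 0.342 to 3.73, and at 10 h was 2.78 and 3.73 in controls against 2.93 and 2.22 in p38-MAPKi, which overlapped.

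**Figure D4:**
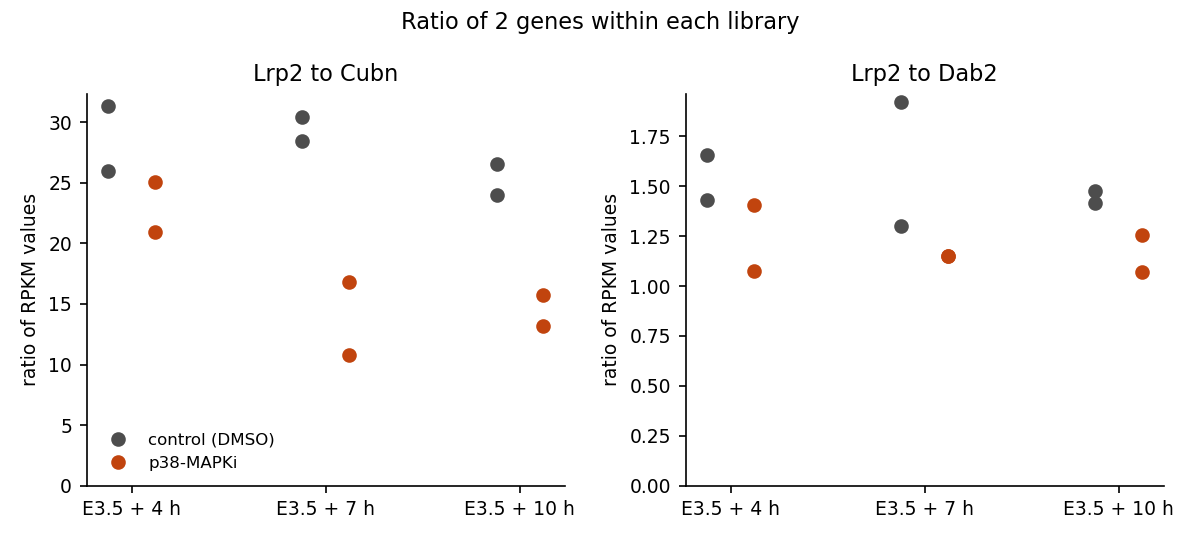
Ratio of RPKM values within each library (vertical axis from 0) by time after E3.5 for Lrp2 to Cubn and Lrp2 to Dab2, with control libraries in grey and p38-MAPKi libraries in orange. Lrp2 to Cubn is 10.8 and 16.8 in p38-MAPKi at 7 h against 28.4 and 30.4 in controls.

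In control blastocysts none of the 4 genes passed limma's test between any times. Their control levels were known when the genes were chosen, so these values too are a description. From 4 to 7 h limma called 0.492% of 10776 genes, and none of the 4 had an unadjusted p under 0.05 (4.79% of tested genes). From 7 to 10 h it called 0.0552% of 10873 genes, and 1 of the 4, Amn, had an unadjusted p under 0.05 (3.79%). From 4 to 10 h it called 0.471% of 10825 genes, and again Amn alone had an unadjusted p under 0.05 (15.2%). Its control level at 10 h was 40.9% of that at 4 h, a log2 difference of -1.29 ± 0.32 (SE) with an adjusted p of 0.112 in limma, and both libraries at 10 h lay below both at 4 h. Lrp2 differed by 0.14 ± 0.10 (adjusted p = 0.515), Dab2 by 0.23 ± 0.11 (adjusted p = 0.344) and Cubn by 0.32 ± 0.20 (adjusted p = 0.472) over the same time, all in limma and all with the 10 h libraries above those at 4 h. The libraries of these times did not overlap for 50.3% of all tested genes, so that such a gap is common here. The median of all tested genes in this comparison was 0.14, and 0.00 after each library was centred on its median.

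The difference of the p38-MAPKi effect between times was estimated as an interaction over 8 libraries. Between 4 and 7 h it was -0.80 ± 0.33 (log2, SE) for Lrp2 and -0.67 ± 0.27 for Dab2, and between 7 and 10 h it was 1.0 ± 0.21 and 0.86 ± 0.18. For Cubn it was 0.01 ± 0.52 and 0.68 ± 0.29, and for Amn -0.59 ± 0.62 and 0.82 ± 0.66. These values are built from the contrasts known when the genes were chosen and are a description, from which no difference between times is read.

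The levels of the PrE markers are given beside those of Lrp2 and Dab2. Their summed level, of which Gata6 made up a large part, was 217 to 252 RPKM in controls and 166 to 167 in p38-MAPKi at 7 h, 179 to 216 and 155 to 224 at 4 h, and 226 to 237 and 239 to 251 at 10 h. At 7 h all 11 tested PrE markers had a negative log2 difference, with a median of -0.46 beside -0.14 over all tested genes, and none passed the test. With the length trend removed their median was -0.10. Of these markers Gata6, a transcription factor that specifies PrE, was at 83.0 ± 2.88 RPKM (SD) in p38-MAPKi and 115 ± 19.9 in control at 7 h, and Lamb1, a laminin chain of the basement membrane, was at 19.4 ± 0.894 and 28.5 ± 3.90. At 10 h, when Lrp2 was at 72.5% of control, the median of the PrE markers was 0.04, with 6 higher and 5 lower. The summed EPI markers ranged from 765 to 803 RPKM in controls and 768 to 813 in p38-MAPKi at 7 h, and the summed TE markers from 1968 to 2634 and 2203 to 2340. Pou5f1 made up a large part of the first sum, and Krt8 and Krt18 of the second. Within each list the markers differed at 7 h. Sox2 (EPI) held 42.3 and 37.3 RPKM in controls against 31.0 and 30.5 in p38-MAPKi, while Pou5f1 held 412 and 463 against 503 and 487. Cdx2 (TE) held 237 and 190 against 158 and 144, while Krt18 overlapped, with 1294 and 972 against 1306 and 1204. Lower values at 7 h were thus not confined to the PrE markers. Cdx2 was also lower at the other times, with 195 and 219 RPKM in controls against 151 and 158 in p38-MAPKi at 4 h. At 10 h it held 204 and 208 against 177 and 176. Dppa1 (TE) was higher at 10 h, with 109 and 118 against 143 and 158. At 4 h 8 of the 11 tested TE markers were higher and 3 lower. The summed EPI markers at 10 h were 745 to 750 RPKM in controls and 668 to 701 in p38-MAPKi. The summed TE markers overlapped there. Id2, a transcriptional regulator among the TE markers, was the 1 marker called under p38-MAPKi, with a log2 difference of -0.86 ± 0.20 (SE, limma adjusted p = 0.00485) at 4 h, a call that was lost in 9 of 14 alternatives, among them without either control replicate (-0.86 and -0.85). In 6 of the 9 limma called no gene of the table. As for Lrp2 at 4 h, the SE of Id2 comes from a variance given to all genes of similar level. The part of a shift in cell types in the values of Lrp2 and Dab2 was not tested.

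The other genes of the endocytic route were taken from lists of receptors, ligands, adaptors, coat and endosome genes. Of these, 85 were tested at 4 and 7 h and 86 at 10 h. Limma called 1 of them at 4 h, 0 at 7 h and 3 at 10 h, beside 0.909%, 2.13% and 0.803% of all tested genes. The unadjusted p was under 0.05 for 5, 27 and 19 of them, beside 9.42%, 28.4% and 19.8% of all tested genes. Their median log2 difference was 0.05, -0.29 and -0.03, beside 0.07, -0.14 and -0.02 over all tested genes. At 7 h 62 of the 85 were lower, and with the length trend removed their median was -0.06. With voom on recovered reads 17 of 89 genes of the route (19.1%), Lrp2 and Dab2 among them, were called at 7 h, as were 13.1% of all tested genes. In the interactions of 4 with 7 h and of 7 with 10 h, limma called 0 of 86 genes of the route, beside 0.00884% of 11311 and 0.00877% of 11400 tested genes, and the unadjusted p was under 0.05 for 7 and 24 of them, beside 6.83% and 26.3%.

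Of the LDL receptor family, 9 of 13 were tested at 7 h, and all 9 were lower with a median of -0.49, which was -0.15 with the length trend removed. None was called. Its most abundant member after Lrp2 was Lrp10, at 18.5 ± 3.23 RPKM (SD) in p38-MAPKi and 28.9 ± 1.44 in control at 7 h. Lrpap1, the chaperone that keeps megalin free of ligand on its way to the surface, was far more abundant than its client, at 261 ± 4.49 and 257 ± 22.7 RPKM at 7 h, and Gipc1, which binds the tail of megalin, was at 49.8 ± 4.54 and 56.5 ± 6.55. The libraries of these 2 genes overlapped. The chaperones and adaptors together had a median of -0.27 at 7 h, with 9 of 15 lower, and none was called at any time.

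Clathrin and AP-2, the coat to which Dab2 links its receptors, had a median of -0.44 at 7 h with 20 of 24 lower, and -0.12 with the length trend removed. None was called at any time. The light chain Clta was at 332 ± 25.5 RPKM (SD) in p38-MAPKi and 284 ± 19.9 in control at 7 h, and the AP-2 sigma subunit Ap2s1 at 216 ± 31.1 and 129 ± 22.7. Both are short genes, with 1800 and 1472 exonic bases. Of the early endosome and recycling genes, 19 of 24 were lower at 7 h with a median of -0.23. The sorting nexins Snx2 and Snx3 were the most abundant, at 364 ± 5.42 and 302 ± 11.3 RPKM in p38-MAPKi and 370 ± 72.7 and 266 ± 60.8 in control. Hgs, an ESCRT-0 protein that sorts ubiquitinated cargo, fell at 10 h from 83.4 ± 2.08 RPKM (SD) to 59.9 ± 2.05, a log2 difference of -0.48 ± 0.06 (SE, limma adjusted p = 0.0398). The call was lost in 5 of 14 alternatives, among them without control replicate 2 (-0.45) or p38-MAPKi replicate 1 (-0.44).

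Of the ligands, 5 of 19 were tested, and all 5 were higher at 10 h with a median of 0.35. Apoa1, the main protein of high-density lipoprotein and a ligand of cubilin, rose at 10 h from 33.8 and 34.6 RPKM in controls to 56.0 and 48.1 in p38-MAPKi, a log2 difference of 0.60 ± 0.09 (SE, limma adjusted p = 0.0478). The call was lost in 5 of 14 alternatives, among them without control replicate 2 (0.62) or p38-MAPKi replicate 1 (0.49). Apoe, a lipoprotein ligand of megalin, was at 142 ± 5.20 and 112 ± 11.8 RPKM (SD) there, and was not called. Plau, the urokinase-type plasminogen activator, rose at 4 h from 7.39 and 6.92 RPKM to 14.1 and 15.6, a log2 difference of 1.05 ± 0.22 (SE, limma adjusted p = 0.000938), and the call was lost in 9 of 14 alternatives, among them without either control replicate (1.10 and 1.01). It was also called in controls from 4 to 7 h, with 0.84 ± 0.20 (limma adjusted p = 0.00713), where its libraries at 7 h held 9.58 and 17.1 RPKM. The SE of both Plau calls comes from the variance that limma gave to genes of similar level, so this gap between replicates does not enter it. Without the variance trend the SE of the control difference was 0.27, and Plau was not called there. That control call was lost without either replicate at 4 h (0.89 and 0.79) or without replicate 2 at 7 h (0.42).

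Of the other uptake receptors, 8 of 13 were tested. Tfrc, the transferrin receptor that brings iron into cells, fell at 10 h from 13.0 and 12.6 RPKM in controls to 8.67 and 8.83 in p38-MAPKi, a log2 difference of -0.55 ± 0.08 (SE, limma adjusted p = 0.0490). The call was lost in 7 of 14 alternatives, among them with any of the 4 libraries left out, with differences from -0.57 to -0.52. The most abundant were the folate receptor Folr1, at 112 ± 2.91 RPKM (SD) in p38-MAPKi and 125 ± 10.9 in control at 10 h, and the proton-coupled folate transporter Slc46a1, at 41.1 ± 0.871 and 42.0 ± 0.311. The list had medians of 0.26, 0.09 and 0.04 at 4, 7 and 10 h.

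**Figure D5:**
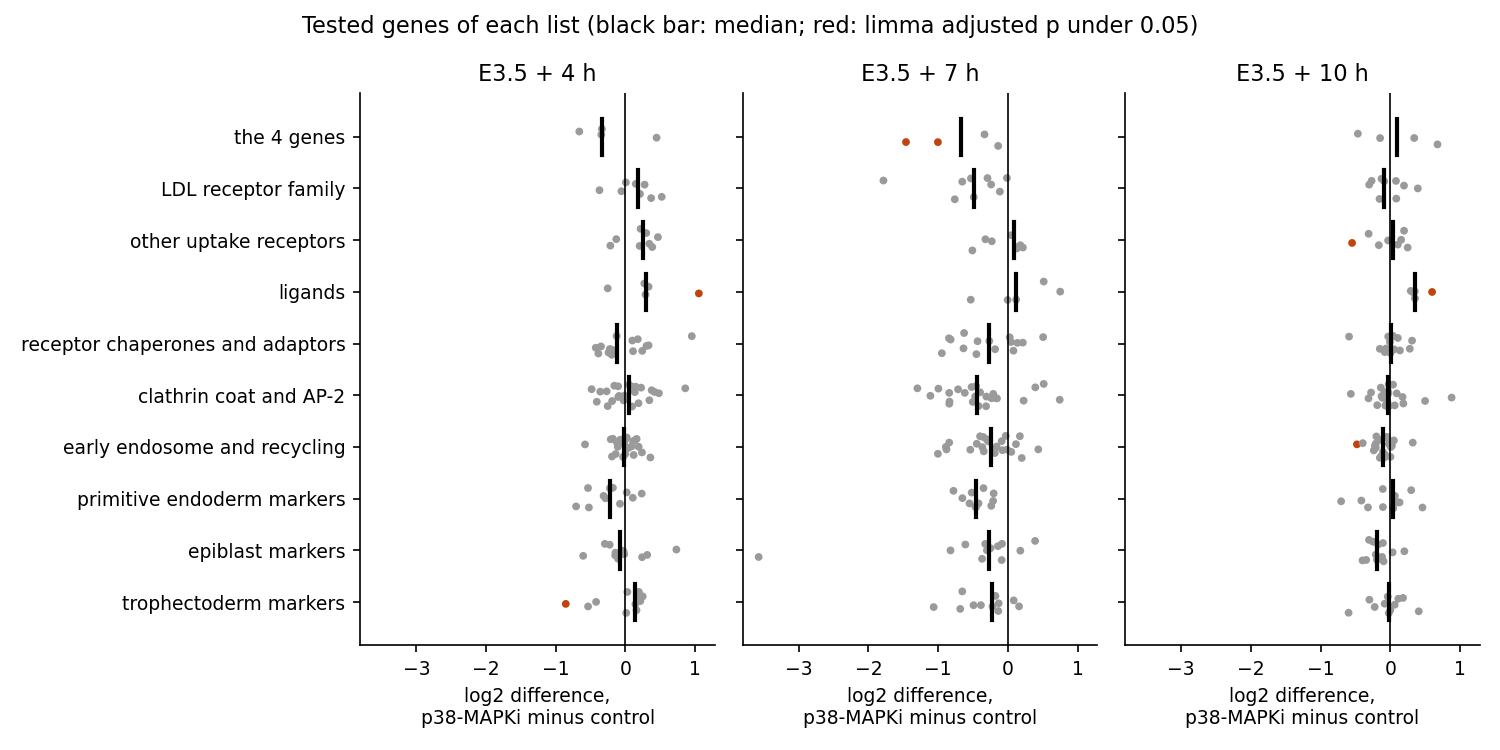
Log2 difference of p38-MAPKi from control (horizontal axis) for the tested genes of each list at 4, 7 and 10 h, 1 point per gene, with the median of a list as a black bar and genes past limma's adjusted threshold in red. At 7 h the medians of the LDL receptor family (-0.49), clathrin coat (-0.44) and PrE markers (-0.46) lie left of 0, and Lrp2 and Dab2 are the 2 red points.

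The genes whose pattern over the 12 libraries was most like each of the 4 were found among 10767 genes with a mean of at least 1 RPKM, by the root mean square (RMS) difference of log2 values centred on each gene's own mean. For Lrp2 these were Sipa1l2 (RMS 0.104), Tiam1 (0.122) and Zfp568 (0.126), with log2 differences of -1.32, -1.43 and -1.56 at 7 h. For Dab2 they were Sec23a (0.0832), Cdk2 (0.0845) and Myo1c (0.0943), with -0.96, -0.85 and -1.01. For Cubn they were Sipa1l1 (0.168), Dpp8 (0.172) and Daam1 (0.177), and for Amn Allc (0.371), D7Ertd128e (0.384) and Syce1 (0.409). Amn rested on 25 to 169 reads per library, and the part of counting error in its larger RMS values was not tested. Between the 4 genes themselves the RMS difference was 0.245 for Lrp2 and Dab2, 0.480 for Lrp2 and Cubn, and 0.986 for Cubn and Amn. The libraries share their depth and length balance across all of these genes.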

How the data were processed

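Blastocyst mRNA was measured in 12 libraries of 30 embryos each, grouped by the labels. The authors made libraries with a directional kit, trimmed single-end reads of 50 bases with Trim Galore 0.4.1, mapped them to GRCm38 with HISAT2 2.0.5, counted them over genes in SeqMonk and deposited log2 RPKM values for 34245 genes. The strand option of the counting is not given in the sources used here. A gene without a read holds 0.9 of a read. From this floor and merged exon lengths (GENCODE M21, matched by 31825 gene IDs, or lengths found by search) the reads of 34244 genes came out whole within 0.05 of a read. Depth was 11242313 to 24457312 reads. Intervals cover counting error only.

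Where 2 or more libraries of a comparison reached 1 RPKM, a gene was fitted with limma 3.58.1 (eBayes with trend, R 4.3.3), on the libraries of each comparison alone, with Benjamini-Hochberg adjustment over all tested genes. The procedure was run on simulated data with independent noise whose spread followed the mean level. Those data held no trend on gene length, so that run does not cover the length trend seen here. At 4 h, and between controls of 4 and 7 h, limma gave all genes the variance of the trend. Python 3.11.15, pandas 2.3.3 and matplotlib 3.10.9 made the rest. The members, lists and tests were chosen with earlier results of these data known. Beside the members, genes are named if called under p38-MAPKi (at most 4 per list and comparison) or if among the 2 highest of a list. The values of 1 such gene are not reported here. Gata6 and Lamb1 are the 2 highest PrE markers. Pou5f1, Krt8 and Krt18 are named as large parts of their sums. Sox2, Cdx2 and Dppa1 were added as examples of EPI and TE markers after seeing the data. The 3 genes of most similar pattern are named for each member. Alternatives were other variance, scaling, filter, pseudocount (1 RPKM), fit and length settings, left-out libraries, a replicate block and voom on recovered reads. Values of single genes under the settings planned for counts were added after seeing the data.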

Additional observations from a re-analysis of the deposited data

Results flagged for a closer look

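For Cubn both p38-MAPKi libraries lay below both controls at 7 h and above both at 10 h, so that its libraries moved in opposite directions at these times. The difference between the effects was 0.68 (log2), a description of contrasts known when the gene was chosen, and it was not tested on other data. At 7 h the lower direction rested on a narrow gap, between 2.56 RPKM in p38-MAPKi replicate 1 and 2.63 RPKM in control replicate 1, and of all tested genes over 10000 bases 91.8% were lower in p38-MAPKi at that time. With the length trend removed the difference at 7 h was 0.26 and that at 10 h was 0.31. Groups of 2 libraries are too small for a test of single libraries that stand apart.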

How the results depend on the processing

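Over 14 alternatives, Lrp2 and Dab2 stayed lower in p38-MAPKi at all 3 times, with log2 differences from -1.60 to -0.84 for Lrp2 and -1.14 to -0.63 for Dab2 at 7 h. Their calls at 7 h were lost in 5 and 7 of these, namely for both genes without the variance trend, with median centring, without a filter, with the length trend removed and without control replicate 2, where limma called no gene of the table, and for Dab2 also with quantile normalization and without control replicate 1. Cubn at 7 h turned to 0.26 with the length trend removed, and Amn at 7 h turned in 4 of 13, up to 0.58 without p38-MAPKi replicate 1.

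The number of endocytic genes called, members included, depended on the settings. At 4 h (1 gene) it was 0 without the variance trend, with median centring, quantile normalization, no filter, all libraries in 1 fit, the length trend removed or voom, and 0 to 5 with a library left out. At 7 h (2 genes) it was 0 without the variance trend or filter and with median centring or the length trend removed, 1 with quantile normalization, 7 with the pseudocount, 10 with at least 10 RPKM, 17 with voom, 22 in 1 fit, and 0 to 24 with a library left out (0 without control replicate 2, 24 without p38-MAPKi replicate 2). At 10 h (3 genes) it was 0 without the variance trend or filter and in 1 fit, 8 with voom, and 0 to 3 with a library left out. For controls from 4 to 7 h (1 gene) it was 0 under every setting but the pseudocount and, with a library left out, 0 to 1. From 4 to 10 h (0 genes) it was 4 with at least 10 RPKM and 0 to 16 with a library left out (16 without control replicate 2 at 4 h). The interaction of 7 and 10 h (0 genes) gave 7 with at least 10 RPKM and 0 to 28 with a library left out, of which 28 came without p38-MAPKi replicate 2 and 7 without control replicate 1 at 7 h. The share of all tested genes moved likewise: at 7 h limma called 18.6% with at least 10 RPKM, 23.6% in 1 fit, 13.1% with voom, 18.5% with the replicate block and 27.4% without p38-MAPKi replicate 2, where the endocytic shares were 17.9%, 24.7%, 19.1%, 20.2% and 27.0%. The causes were not tested. With the replicate number as a block, 2, 18 and 5 genes were called at 4, 7 and 10 h, 0 in controls from 4 to 7 h and 4 from 4 to 10 h. Same-numbered libraries deviated together with correlations of -0.01 to 0.14. The labels give only the replicate number, and whether such libraries were handled together was not tested. Depth limits Amn most, with 25 reads in the shallowest library.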
